A study of Dreissena polymorpha with 11 samples.

Results

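On an array made for Dreissena polymorpha, the zebra mussel, a bivalve of fresh water, 3 of 2864 EY sequences stood out by their signal in both half-body samples. EY is the prefix of the largest identifier series on the array, which carries probes for 3541 sequences in all. The 3 were chosen by their own signal. For each EY sequence the 2 probes brightest on average over 10 arrays were taken, and the gap was the lower half-body array minus the highest of the other 8 arrays, on a log2 scale. A sequence was kept if the mean gap of its 2 probes was above 0.5, both gaps were above 0 and the processed signal was above 50 on both half-body arrays. Only 2632 EY sequences had a gap for both probes and could be judged. Up to 100 sequences would have been kept, and 3 met the rule, namely EY433985, EY434712 and EY436108. The choice depends on the scaling: with arrays scaled to the 75th percentile over all probes, a setting chosen after seeing the data, none of the 3 met the rule and the mean gaps were 0.48, -0.05 and -0.15 in that order.

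The study profiled total RNA of untreated animals on 11 single-dye arrays to compare expression patterns of tissues and larvae. There were 2 half-body arrays, 2 of gill, 2 of digestive gland, 2 of male gonad, 1 of female gonad and 2 of larvae at 24 h after fertilization. Half-body array 1 is labelled female and half-body array 2 male, and both carry the replicate number 1 in their titles, so 1 and 2 follow the order of the samples here. Under gender, array 1 of gill and of digestive gland is labelled female and array 2 male, while the source names call all 4 female. No genotype, strain or adult age was given. Adult samples started from 500 ng of RNA and larvae from 200 ng. The labels do not state that the arrays of a group stem from different animals. The spreads and p-values below therefore describe these samples, and their variation may be technical.

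A bivalve's gill filters water and exchanges gas, its digestive gland takes up and breaks down food, and its gonad makes gametes. The soft body also holds a mantle, adductor muscles and a foot whose glands make the byssal threads that anchor the animal. The labels do not say which organs a half-body sample held. In such bulk samples, more cells of a type and more RNA per cell cannot be told apart.

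The files pair none of the 3 identifiers with a gene. A search by identifier among 51549 RefSeq genes (assembly UMN_Dpol_1.0) matched 0 of all 3541 sequences, so the lack of a match is not particular to these 3. No function can therefore be given for them, and the half-body label could not be checked against marker genes. Larvae 1 was left out by the rule. On that array the scanner software called 106 of 13654 probes well above background, while the other 10 arrays had 4356 to 5630 such probes, and 0 of the 14 probes of the 3 sequences were among them. Such a probe is called detected here. The arrays lay on 3 slides. Half-body array 1, digestive gland 1, male gonad 1 and larvae 1 shared slide 1. Gill 1 was by itself on slide 3, and the remaining 6 arrays were on slide 2.

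Levels are given as log2 of the processed signal minus the array's median over 1325 EY probes that were above 1000 on all 10 arrays. A level of 0 thus equals the median of these bright reference probes. A sequence's level is the mean of its 2 brightest probes. Because these values chose the sequences, the differences between the half-body and the other samples are described without a test.

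EY433985 was at -5.24 on half-body array 1 and -4.38 on half-body array 2. Its other levels were -6.00 on male gonad 2, -6.16 on female gonad 1, -6.47 on digestive gland 2 and -6.64 on male gonad 1. The lowest were -7.03 on gill 1, -7.21 on digestive gland 1, -7.29 on larvae 2 and -7.44 on gill 2. Both half-body arrays lay above all others, and the gill and larval arrays lay near the bottom. The half-body mean of -4.81 ± 0.61 (SD, n = 2) was 2.56-fold the female gonad level, 2.86-fold the male gonad mean, 4.09-fold the digestive gland mean and 5.37-fold the gill mean. It was 5.60-fold the level of larvae 2. The mean gap of its 2 probes was 0.69, with 0.80 and 0.58 for the single probes. The highest other array was female gonad 1 for the first probe and male gonad 2 for the second. The 2 half-body arrays differed from each other by 0.86, which is more than the gap.

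EY434712 was at -6.60 on half-body array 1 and -6.38 on half-body array 2. Female gonad 1 followed at -7.18, then larvae 2 at -7.63, male gonad 2 at -7.85, digestive gland 2 at -8.11 and male gonad 1 at -8.38. Gill 2 was at -8.40, digestive gland 1 at -9.12 and gill 1 at -9.45. The female gonad and the larval array were here the nearest to the half-body arrays. The half-body mean of -6.49 ± 0.16 (SD, n = 2) was 1.62-fold the female gonad level, 2.20-fold larvae 2, 3.09-fold the male gonad mean, 4.36-fold the digestive gland mean and 5.41-fold the gill mean. The probe gaps were 0.62 and 0.55, both against female gonad 1, with a mean of 0.58. Those half-body arrays differed by 0.22, less than the gap, while the gill pair differed by 1.06 and the digestive gland pair by 1.004. Over its 2 probes the signal ran from 29.2 to 266 on the other 8 arrays and from 225 to 523 on the half-body arrays, and 19 of 20 probe values were well above background. The exception was 1 of the 2 probes on gill 1, so the gill mean and its fold include a value that was not detected.

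EY436108 was at -0.13 on half-body array 1 and 0.11 on half-body array 2. The other arrays ran from -0.69 on male gonad 2, -1.16 on female gonad 1 and -1.28 on male gonad 1 down to -2.09 on digestive gland 1 and -2.44 on gill 2. Between them lay gill 1 at -1.44, larvae 2 at -1.56 and digestive gland 2 at -1.72. The half-body arrays were again above all others, with the 3 gonad arrays next. The half-body mean of -0.01 ± 0.17 (SD, n = 2) was 1.96-fold the male gonad mean, 2.21-fold the female gonad level, 2.92-fold larvae 2, 3.72-fold the digestive gland mean and 3.79-fold the gill mean. The probe gaps were 0.50 and 0.60, both against male gonad 2, with a mean of 0.55. The half-body pair differed by 0.24, the digestive gland pair by 0.37, the male gonad pair by 0.59 and the gill pair by -0.997 (array 2 minus array 1). Of its 5 probes, 4 belong to the 1325 reference probes.

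**Figure D1:**
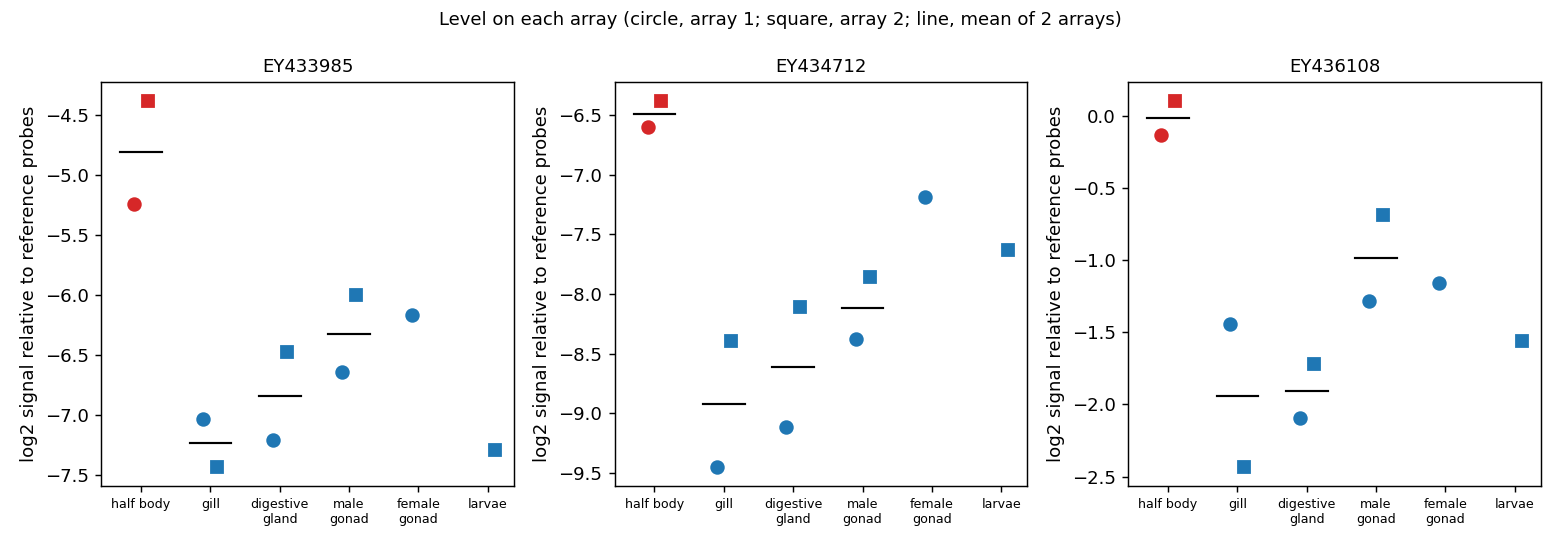
Level of each sequence on the 10 arrays, as log2 signal relative to the reference probes, with red points for the half-body arrays and a line at the mean of each 2-array group. In all 3 panels both half-body points lie above the other 8, by 0.76 for EY433985, 0.58 for EY434712 and 0.55 for EY436108 when its 2 probes are averaged first.

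The order of the groups below the half-body samples was alike in part. By group mean, gill had the lowest level for EY434712 and EY436108, and larvae 2 the lowest for EY433985, at -7.29 against -7.23 ± 0.29 (SD, n = 2) in gill. Digestive gland came next above gill in all 3, at -6.84 ± 0.52, -8.61 ± 0.71 and -1.91 ± 0.26 (SD, n = 2) for EY433985, EY434712 and EY436108. For EY434712 gill was at -8.93 ± 0.75, and for EY436108 it was at -1.94 ± 0.71 (SD, n = 2). Gill and digestive gland arrays overlapped in each sequence, so these neighbours in the order do not differ beyond their spread. Male gonad was at -6.32 ± 0.46, -8.12 ± 0.37 and -0.98 ± 0.42 (SD, n = 2). The female gonad array lay between the male gonad arrays for EY433985 and EY436108 and above both for EY434712. The position of larvae 2 varied. Counted from the highest of the 10 arrays, it ranked 9 for EY433985, 4 for EY434712 and 7 for EY436108.

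The other probes of these sequences were not used by the rule but come from the same arrays and the same contrast, so they are a description too. Of 8 such further probes, 5 had a gap above 0, against 53 of 5707 further probes of the other EY sequences (0.929%), but 1 of the 5 was not detected on half-body array 1. Among probes well above background on both half-body arrays, 4 of 6 further probes had a gap above 0, against 31 of 834 (3.72%). All of these probes share their sequence with the chosen ones, so they are no separate members.

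For EY436108 probes 3 and 5 by brightness had gaps of 0.74 and 0.22, and probe 4 had -0.03, with male gonad 2 just above half-body array 1. All 5 were detected on all 10 arrays. For EY434712, probe 3 had a gap of 0.65 and was detected on 9 arrays. Probe 4 was detected on only 4 arrays and not on half-body array 1, so it has no measured gap. For EY433985, probe 3 had a gap of 0.50 and was detected on all 10 arrays. Probe 4, detected on 5 arrays, had a gap of -0.76, as female gonad 1 exceeded half-body array 1. Probe 5 was detected on none of the 10 arrays, and its values have no order. Over the 14 probes, 13 had a higher mean on the half-body arrays than over the other 8 arrays, and the exception was this undetected probe. The 14 include the 2 probes of each sequence for which the rule requires this, so nothing is read from the count.

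**Figure D2:**
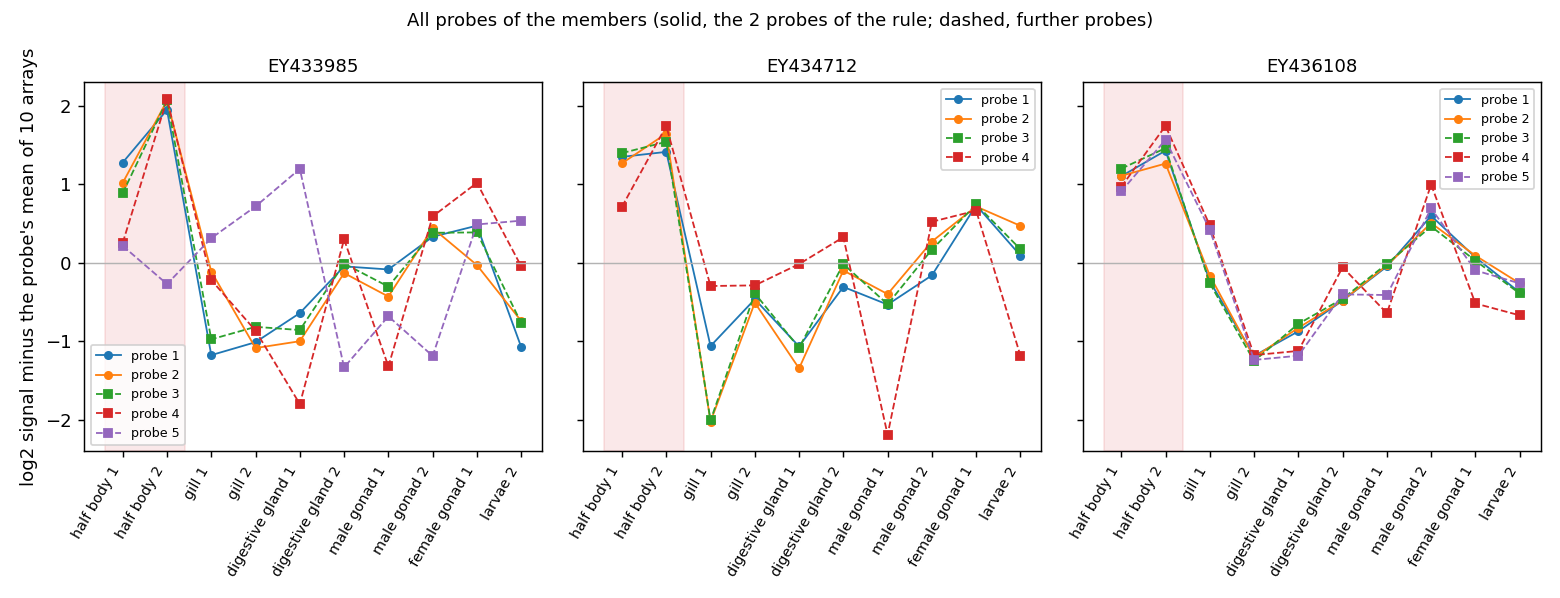
Each of the 14 probes on the 10 arrays, as log2 signal minus the probe's own mean, with solid lines for the 2 probes of the rule and dashed lines for further probes. All probes but probe 5 of EY433985, which was not detected, peak on a half-body array, and probes 1 to 3 of EY436108 run close together. Probes 4 and 5 depart from them on some arrays, as on gill 1 at 0.48 and 0.42 against -0.26 to -0.16.

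The 3 sequences stand at the edge of a broad distribution. Over the 2632 EY sequences with a gap for both probes, the median mean gap was -1.78, with -2.75 and -0.97 as quartiles. Gaps were above 0 in both probes for 19 sequences, of which 18 were above 50 on both half-body arrays. The 15 of these outside the 3 had mean gaps from 0.11 to 0.49. The last inside the threshold of 0.5 were EY434712 at 0.58 and EY436108 at 0.55. The first outside were EY435882 at 0.499954, which also missed the signal minimum, and EY433852 at 0.49. A further 11 sequences had mean gaps from 0.52 to 1.14. Each had 1 probe with a gap not above 0 and at least 1 probe, not always shown to be the same, with a signal not above 50 on both half-body arrays.

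**Figure D3:**
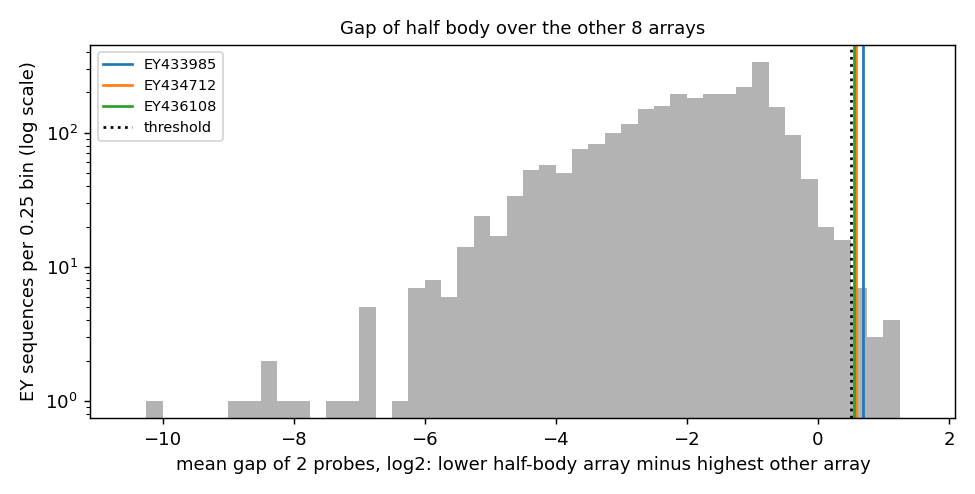
Number of EY sequences (log scale) by the mean gap of their 2 probes, in log2 units, with the 3 sequences as coloured lines and the threshold of 0.5 dotted. Most sequences lie below 0, and the lines at 0.55, 0.58 and 0.69 stand just above the threshold.

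The same rule applied to the other groups of 2 arrays gave 35 EY sequences in gill, with mean gaps of up to 4.01, 2 in digestive gland with up to 0.73 and 1 in male gonad with 0.76. The largest half-body gap, 0.69, was thus close to those of digestive gland and male gonad and below that of gill. The difference between these counts was not tested. Outside the EY series, 2 of 605 sequences with at least 2 probes met the half-body rule, AM230265 with a mean gap of 0.92 and AJ517680 with 0.63. They were named after their values were seen.

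Within slides the half-body arrays were compared only with arrays scanned from the same slide. On slide 1, half-body array 1 exceeded the higher of digestive gland 1 and male gonad 1 by 1.41 for EY433985, 1.78 for EY434712 and 1.15 for EY436108. Of the EY sequences tested, 672 of 1701 (39.5%) had half-body array 1 above both. On slide 2, half-body array 2 exceeded the highest of 5 other arrays by 1.62, 0.80 and 0.79 in the same order, and 208 of 1685 EY sequences (12.3%) had half-body array 2 above all 5. The rule requires all of these differences to be above 0, so nothing is read from these shares. On slide 1, where only digestive gland 1 and male gonad 1 could be compared, male gonad 1 was the nearer. On slide 2 the nearest array was male gonad 2 or, for EY434712, female gonad 1.

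Half-body array 2 was above half-body array 1 in all 3 sequences, by 0.86 for EY433985, 0.22 for EY434712 and 0.24 for EY436108. The rule uses the lower of both arrays and fixes no sign. Over 1682 EY sequences tested 882 were above 0, and the median was 0.04 with quartiles of -0.43 and 0.69. EY433985 thus lay above the upper quartile and the other 2 within the quartiles. With 1 array a side there is no test. Within the half-body pair labelled sex follows the slide, so sex and slide cannot be told apart there. By the gender label the same holds for the digestive gland pair, whereas both male gonad arrays carry male in their titles. The cause of the pair differences was not tested. The slide 2 array was also the higher one in the digestive gland pair, by 0.73, 1.004 and 0.37, and in the male gonad pair, by 0.64, 0.52 and 0.59. In the digestive gland pair the EY median was -0.12 with quartiles of -0.62 and 0.47, and 755 of 1702 EY sequences were above 0. EY436108 lay within these quartiles and the other 2 above them. In the male gonad pair the EY median was 0.25 with quartiles of -0.37 and 1.07, and 1006 of 1698 were above 0. All 3 lay within those quartiles. In the gill pair, on slides 3 and 2, the signs were mixed, at -0.41, 1.06 and -0.997. Scaled to the 75th percentile over all probes, half-body differences of the 3 ran from -0.39 to 0.25 with a median of -0.37, and the EY median was -0.57. This scaling subtracts 1 value per array, so both medians moved by -0.61. The median of the 3 therefore had to stay 0.20 above that of the EY sequences. With the deposited table the 3 ran from -0.45 to 0.30, with a median of 0.01 against 0.03 over the EY sequences.

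**Figure D4:**
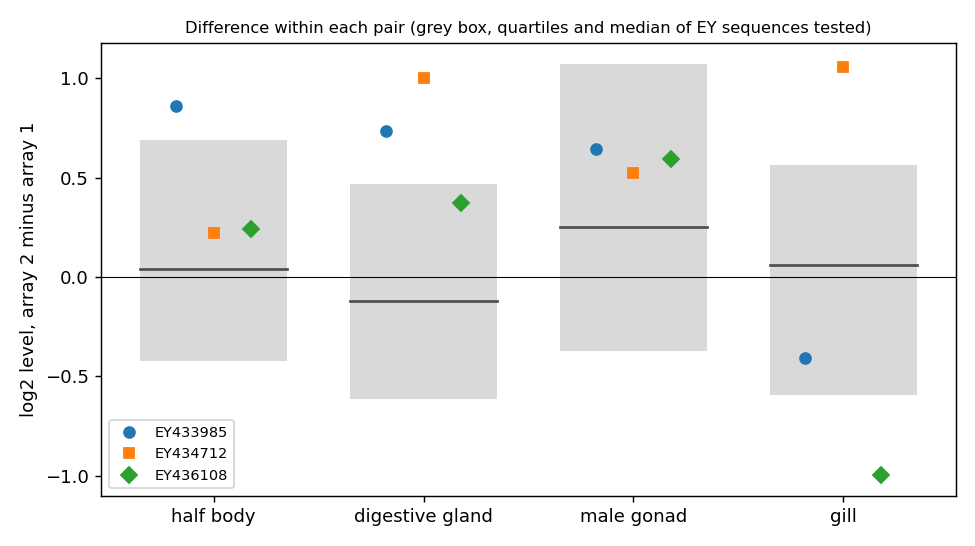
Level on array 2 minus array 1 (log2) within each pair, with points for the 3 sequences and grey boxes for the quartiles and median of the EY sequences tested. All 9 points of the half-body, digestive gland and male gonad pairs lie above 0, between 0.22 and 1.004, and the gill points run from -0.997 to 1.06. Above 0 in those 3 pairs, in that order, were 882 of 1682, 755 of 1702 and 1006 of 1698 EY sequences tested.

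Differences among the remaining samples were tested too. The rule used the highest of these 8 arrays, though no difference between their groups, and the half-body arrays enter the fit's spread, so these tests are not fully independent of the choice. The limma fit on 10 arrays ran over all sequences with 2 probes that passed a filter. At least 1 of the 2 probes had to be detected on at least 2 of the 8 arrays that are not half-body. All 3 sequences passed. The contrasts share arrays, so they are not independent. Larvae and female gonad have 1 array each, which is assumed to vary like the other groups. None of the 3 sequences was called at an adjusted p below 0.05 in any of 4 contrasts, where 0% to 3.54% of all sequences tested were called.

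Between gill and digestive gland limma called 58 of 2230 sequences (2.6%), 31 higher and 27 lower in gill, and 407 had an unadjusted p below 0.05. When arrays were scaled to the 75th percentile over all probes, 6 were higher and 24 lower. With the slide as a block they were 0 higher and 10 lower, and with the replicate block 0 and 21. Their number fell to between 16 and 33 without any 1 gill, digestive gland or half-body array. The difference, gill minus digestive gland, was -0.39 ± 0.51 for EY433985 (SE, limma adjusted p = 0.675), with a 95% interval from -1.65 to 0.86. It was -0.31 ± 0.56 for EY434712 (limma adjusted p = 0.761) and -0.03 ± 0.48 for EY436108 (limma adjusted p = 0.975). The median over all sequences tested was 0.46, so the 3 lay below it. On slide 2 alone, gill 2 was below digestive gland 2 in all 3, by -0.96, -0.28 and -0.71, where the median was 0.49. Gill 1 shares its slide with no other array. With the slide as a block the gill group therefore rests on gill 2, and the estimates were -0.97, -0.07 and -0.73. Leaving out 1 array gave -0.76 to -0.03 for EY433985, -0.84 to 0.22 for EY434712 and -0.53 to 0.47 for EY436108.

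Between gill and male gonad 79 of 2230 sequences were called (3.54%), 48 higher and 31 lower in gill, with 463 at an unadjusted p below 0.05. The split was 4 higher and 22 lower with the 75th percentile over all probes, 1 and 11 with the slide as a block and 0 and 16 with the replicate block, and 16 to 33 calls were left without any 1 gill, male gonad or half-body array. Gill minus male gonad was -0.91 ± 0.51 for EY433985 (limma adjusted p = 0.325), -0.81 ± 0.56 for EY434712 (limma adjusted p = 0.402) and -0.95 ± 0.48 for EY436108 (limma adjusted p = 0.301). Their 95% intervals reached from -2.17 to 0.34, from -2.18 to 0.56 and from -2.14 to 0.23, so differences of up to 2 log2 units toward male gonad were within them. The median over all sequences was 0.49. On slide 2 the differences were -1.44, -0.54 and -1.75, against a median of 0.19. With the slide as a block the estimates were -1.49, -0.57 and -1.65. Gill 1 is by itself on its slide, so these rest on gill 2 and add little to the slide 2 differences. Leaving out 1 array gave -1.23 to -0.59 for EY433985, -1.34 to -0.28 for EY434712 and -1.45 to -0.46 for EY436108, all of the same sign. Gill arrays lay below both male gonad arrays in all 3 sequences, by 0.39 for EY433985, 0.02 for EY434712 and 0.16 for EY436108 between the nearest arrays. For EY434712 that distance is small beside the gill SD of 0.75. How many of all sequences tested were separated in this way was not counted, so nothing is read from it.

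Between digestive gland and male gonad 0 of 2230 sequences were called by limma (0%), with 54 at an unadjusted p below 0.05. The 3 estimates were all negative, at -0.52 ± 0.51 for EY433985, -0.50 ± 0.56 for EY434712 and -0.92 ± 0.48 for EY436108, each with a limma adjusted p of 0.999. Within slide 1 they were -0.56, -0.74 and -0.81, and within slide 2 they were -0.48, -0.26 and -1.03, against medians of 0.29 and -0.14 over the sequences tested. Digestive gland was thus the lower of both on each slide for each of the 3, but the share of all sequences with such signs was not counted. Across slides, digestive gland 2 lay above male gonad 1 for EY433985 (-6.47 against -6.64) and EY434712 (-8.11 against -8.38), though not for EY436108. Each group has an array on slide 1 and on slide 2, so slide variation enters the SE above. With the slide as a block the estimates were unchanged, with SE of 0.28, 0.34 and 0.29. The limma unadjusted p was 0.145, 0.227 and 0.038, and the adjusted p was 0.994 for each, so none was called.

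Larvae 2 was set against the mean of both gonads, gill and digestive gland, and 59 of 2209 sequences were called (2.67%), 36 higher and 23 lower in larvae, with 404 at an unadjusted p below 0.05. There were 0 calls without any 1 half-body, male gonad, gill or digestive gland array, 49 without female gonad 1, and 17 in each direction with quantile normalization. The signs differed among the 3. EY434712 was higher in larvae 2 by 0.58 ± 0.60 (SE, limma adjusted p = 0.662), EY433985 was lower at -0.65 ± 0.55 (limma adjusted p = 0.588), and EY436108 was at -0.06 ± 0.52 (limma adjusted p = 0.959). The median over all sequences was 0.29. The lower RNA input of larvae cannot be told apart from the stage.

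**Figure D5:**
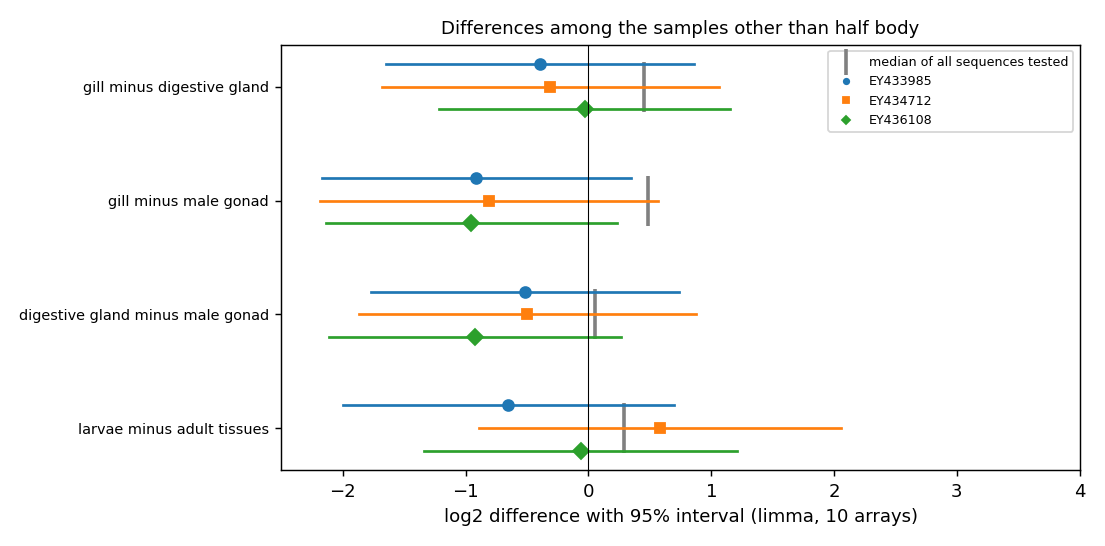
Log2 differences of the 3 sequences among the samples that are not half-body, as points with 95% intervals from limma, and the median of all sequences tested as a grey tick. Every interval shown includes 0.

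The profiles of the 3 were compared over the arrays. Since the rule places the half-body arrays highest in each, the 8 other arrays are given too. EY433985 and EY436108 correlated at Pearson r = 0.93 over 10 arrays and 0.82 over the 8, EY433985 and EY434712 at 0.81 and 0.51, and EY434712 and EY436108 at 0.76 and 0.40. These are descriptions over arrays that share slides and scaling. Among 820 other sequences with both probes detected on all 10 arrays, the profile most like that of EY436108 was EY435778, with r = 0.986 over 10 arrays and 0.966 over the 8. EY436637 followed with 0.982 and 0.955. The profile most like that of EY433985 was EY436527 (0.945 and 0.906), and for EY434712 it was EY436793 (0.921 and 0.830). Of these 4, EY435778, EY436637 and EY436793 also had gaps above 0 in both probes, with means of 0.32, 0.42 and 0.45, below the threshold, whereas EY436527 had a mean gap of -0.07. They were picked as the highest of many after the values were seen.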

How the data were processed

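Per the file headers, the intensity of each spot comes from Agilent Feature Extraction 10.5.1.1, with background subtraction and spatial detrending inside an array and no scaling between arrays. Per the labels' protocols, Trizol extracts were treated with DNase and labelled with Cy3. The authors also deposited a table of log2 values whose scaling and centring are not given in the sources used here. Its columns correlated with the scanner values at r of 0.984 to 0.991 for 9 arrays, but at 0.579 for gill 1 and 0.279 for larvae 1, with medians of 2.97 to 4.23, so it served only as an alternative.

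Control spots and spots flagged as outliers were left out, and spots of 1 probe were averaged. A probe counted as well above background if every unflagged spot was. No spot of the 14 probes was flagged on the 10 arrays. The 235 sequences with 1 probe were left out. The fits used limma 3.58.1 in R 4.3.3 (lmFit, eBayes, Benjamini-Hochberg over all sequences) and were tested on simulated data. The number of arrays limits the precision. The scale was that of the rule, not the 75th percentile, which was an alternative. The scanner files used here hold a median spot signal, which took the place of the planned mean signal in normexp (offset 50). Named sequences were the leaders by gap, half-body level, pair difference, nearness to the threshold and further probes. The sequences, the rule and the tests were chosen with earlier results of these data known.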

Additional observations from a re-analysis of the deposited data

How the results depend on the processing

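None of the 3 sequences was called in any of 4 contrasts under the 21 other settings of each fit on sequences (19 for larvae), nor any of their 13 tested probes when each probe was fitted by itself. Over all sequences or probes tested, these settings called 0% to 4.42%, so nothing particular to the 3 is read from this. The lowest limma adjusted p over these settings was 0.126, against 0.301 to 0.999 in the reported fit.

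The number of sequences chosen by the rule was 3 to 23 when 1 array was left out (12 without half-body array 2, 23 without array 1). All 3 were among them each time. Leaving out an array can only keep or raise a gap, so this was fixed in advance and nothing is read from it. The number chosen was 4 with the 75th percentile over detected probes, with all 3 kept. With normexp it was 3, of which 2 were kept. It was 2 with the deposited table, of which 1 was kept, and 5 of which 2 were kept with the gill 1 column left out of that table, a setting chosen after seeing the data. With the 75th percentile over all probes, also chosen after seeing the data, it was 1 and none of the 3 was kept (mean gaps 0.48, -0.05 and -0.15 for EY433985, EY434712 and EY436108). With the nearly blank larvae 1 added it was 0.

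The median of half-body array 2 minus array 1 over the 3 was 0.24, and -0.37 with the 75th percentile over all probes, which moved the EY median by the same -0.61. It was 0.27 with the percentile over detected probes, 0.30 with normexp and 0.01 (from -0.45 to 0.30) with the deposited table.

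Calls over all sequences for gill minus digestive gland were 58, but 30 with the 75th percentile over all probes (6 up and 24 down), 29 with normexp (9 and 20), 8 on 11 arrays, 0 with the deposited table, 10 with the slide as a block (0 and 10), 144 with single probes and 21 with the replicate block (0 and 21). For gill minus male gonad they were 79, but 26 (4 and 22), 33 (15 and 18), 5, 0, 12, 145 and 16 under the same settings, and 48 with quantile normalization (25 and 23). For larvae they were 59, but 4 with the 75th percentile over all probes, 34 with quantile normalization (17 and 17), 145 with no filter, 38 with trend and robust variances, 10 with single probes and 0 with normexp, 11 arrays, the deposited table or the slide as a block. Leaving out 1 array gave 16 to 58 calls for gill minus digestive gland, 16 to 79 for gill minus male gonad, 0 to 1 for digestive gland minus male gonad and 0 to 49 for larvae. The causes were not tested.

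Signs of uncalled estimates turned in these cases, where both percentile scalings add a constant to a contrast for all sequences (0.11 and 0.31 for gill minus digestive gland, 0.11 and 0.18 for larvae), so those turns are not particular to the 3. Gill minus digestive gland became 2.65 for EY433985 and 2.71 for EY434712 with the deposited table. It was 0.0029 for EY434712 with the 75th percentile over all probes and 0.015 with normexp. For EY436108 it was 0.083 and 0.28 with the 75th percentile over detected and over all probes, 0.30 with quantile normalization and 0.014 with normexp. Gill minus male gonad became 2.16 for EY433985 and 2.15 for EY434712 with the deposited table. Larvae minus adult tissues became 2.96 for EY433985 and 0.64 for EY436108 on 11 arrays, and for EY436108 0.042 and 0.12 with the 2 percentiles, 0.32 with quantile normalization and 0.83 with the deposited table. Leaving out 1 array gave gill minus digestive gland from -0.84 to 0.22 for EY434712 and from -0.53 to 0.47 for EY436108, digestive gland minus male gonad from -1.001 to 0.0025 for EY434712, and larvae from -0.19 to 0.062 for EY436108.

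The replicate block used the replicate numbers of the titles on the 6 gill, digestive gland and male gonad arrays, where it called 0 of the 3. Deviations of same-numbered arrays had r = 0.744 for digestive gland against male gonad, whose numbers match their slides, and -0.022 and 0.018 against gill, so the numbers were not taken as pairs.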
